A study of Mus musculus with 8 samples.

Results

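The regions described here had a peak of open chromatin in every library of the study and lay away from gene ends. Peaks of all 8 libraries on chromosomes 1 to 19 were merged where they overlapped or touched, which gave 139148 regions. A total of 34676 of these were overlapped by a peak of each library, and 20776 of those, the members, lay more than 1 kb from both ends of every protein-coding or long noncoding RNA gene in the RefSeq table. The other 13900, within 1 kb of a gene end, are called gene-end regions below. The members were selected on the presence of a called peak in all 8 libraries, so what follows concerns how strong a region was, not whether it was open. A region without a peak in any 1 library could not be a member.

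The libraries were ATAC-seq profiles, in which a transposase cuts and tags accessible DNA, of satellite cells from hindlimb skeletal muscle of C57BL/6 mice, 2 libraries in each of 4 groups. QSC were freshly isolated satellite cells, and ASC were satellite cells isolated 2.5 days after an injury. The control siRNA group was grown in culture towards differentiation and received a control siRNA. The LncMyod siRNA cells were cultured likewise but with an siRNA that targets the long noncoding RNA LncMyod, given 48 h before harvest. The labels give no such time for the control siRNA, so whether both culture groups were treated for equally long is not known here. The 2 culture groups share the culture and an siRNA treatment, neither of which the QSC and ASC received. Nothing in the labels ties a replicate to its own animals or cultures. The p-values thus measure only the spread between these libraries, which may be technical.

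Satellite cells are the stem cells of skeletal muscle. They rest beside the muscle fibre, enter the cell cycle after injury, and then fuse into new fibres. Open chromatin away from promoters usually marks enhancers and insulators, where transcription factors bind and displace nucleosomes. Strength at such sites depends on which factors are present, so a region can be open in several cell states and still differ in strength among them.

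Strength was the fold enrichment over local background that the authors' peak caller gave for the strongest peak of a region. It was converted to a percentile rank within each library over the same 34676 regions, where 100 is the strongest. Libraries held 59666 to 95449 peaks over 42.4 to 64 Mb, and the peak lists carry no read counts, so depth is unknown. A percentile is a position among regions of one library and not an amount of open chromatin. Of 7 satellite cell marker genes, 4 had an annotated start in the sequence table (Calcr, Cdh15, Myf5 and Pax7), and all 4 starts had a peak in every library. Starts of the leukocyte genes C1qb, Cd3e, Itgam, Laptm5 and Ptprc and of the endothelial genes Emcn, Erg and Tie1 had a peak in none of the libraries. The same held for fibroadipogenic Pdgfra and Pi16, glial S100b and mural Rgs5. Other starts of these lists had a peak in all 8 libraries. They included leukocyte Cd68, Ikzf1 and Runx3, endothelial Egfl7, Flt1, Kdr and Tek, and fibroadipogenic Cd55, Cebpa, Pparg and Twist2. Glial Egr2 and Ngfr and mural Abcc9, Acta2, Cspg4, Kcnj8, Mcam and Notch3 did so too. Starts with a peak numbered 3 to 4 of 9 for leukocyte markers, 4 of 7 for endothelial, 4 to 5 of 7 for fibroadipogenic, 2 of 3 for glial and 6 of 7 for mural markers. The part of such cells in the results was not tested.

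The RefSeq table of GRCm38.p6, whose coordinates are those of mm10, gives annotated transcript starts. A window was taken from 250 bases before to 50 bases after each start. Windows of 1272 starts overlapped 1064 of the members (5.12%), which are called members with an internal start. Of the windows, 1045 lay wholly inside a member, and in the rest the start itself may lie outside it. These are starts within a gene, away from its outer ends. The windows below lie wholly inside their members. The first 5 are those in the members that shifted most clearly in each direction, and the last is that of Cdkn2a, chosen after its values were seen. Capitals mark matches, on either strand, to CAGCTG (an E-box, the class of site bound by MyoD), GGAATG (bound by TEAD factors), TGANTCA (AP-1), TGTGGT (RUNX) and GGGCGG (the GC box bound by Sp1). In the Apbb2 window 3 GC boxes overlap.
Ralgds start, chr2:28533214-28533513, plus strand: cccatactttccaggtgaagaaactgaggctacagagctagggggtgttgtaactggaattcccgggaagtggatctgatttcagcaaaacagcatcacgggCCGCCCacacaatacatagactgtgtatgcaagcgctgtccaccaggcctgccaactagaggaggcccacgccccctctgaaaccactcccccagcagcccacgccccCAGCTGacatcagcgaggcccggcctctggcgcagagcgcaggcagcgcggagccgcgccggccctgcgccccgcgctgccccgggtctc
S100a16 start, chr3:90540896-90541195, plus strand: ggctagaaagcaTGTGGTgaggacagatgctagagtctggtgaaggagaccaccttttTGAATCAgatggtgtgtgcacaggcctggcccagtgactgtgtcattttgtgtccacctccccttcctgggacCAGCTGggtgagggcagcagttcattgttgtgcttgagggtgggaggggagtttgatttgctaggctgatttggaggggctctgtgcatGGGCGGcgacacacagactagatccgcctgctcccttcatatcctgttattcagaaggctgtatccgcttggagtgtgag
R3hdm1 start, chr1:128141737-128142036, plus strand: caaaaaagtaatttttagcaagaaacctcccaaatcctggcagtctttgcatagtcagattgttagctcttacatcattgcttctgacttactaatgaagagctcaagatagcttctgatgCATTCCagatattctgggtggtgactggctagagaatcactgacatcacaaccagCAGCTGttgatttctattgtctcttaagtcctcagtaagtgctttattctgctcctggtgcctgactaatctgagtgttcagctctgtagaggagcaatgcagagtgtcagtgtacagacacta
Apbb2 start, chr5:66337616-66337915, minus strand: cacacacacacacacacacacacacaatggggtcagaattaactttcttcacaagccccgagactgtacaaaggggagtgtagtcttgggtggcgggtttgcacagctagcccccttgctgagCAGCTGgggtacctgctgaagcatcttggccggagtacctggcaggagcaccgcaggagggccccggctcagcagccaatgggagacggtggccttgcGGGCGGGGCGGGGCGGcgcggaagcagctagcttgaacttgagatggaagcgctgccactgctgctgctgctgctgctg
Adgrg1 start, chr8:94984149-94984448, plus strand: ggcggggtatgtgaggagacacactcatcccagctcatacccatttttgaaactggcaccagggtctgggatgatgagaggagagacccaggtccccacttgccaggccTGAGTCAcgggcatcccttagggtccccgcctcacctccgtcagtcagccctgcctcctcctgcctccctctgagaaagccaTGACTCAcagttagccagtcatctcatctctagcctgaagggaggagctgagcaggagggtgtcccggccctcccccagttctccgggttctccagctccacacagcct
Cdkn2a start, chr4:89282143-89282442, minus strand: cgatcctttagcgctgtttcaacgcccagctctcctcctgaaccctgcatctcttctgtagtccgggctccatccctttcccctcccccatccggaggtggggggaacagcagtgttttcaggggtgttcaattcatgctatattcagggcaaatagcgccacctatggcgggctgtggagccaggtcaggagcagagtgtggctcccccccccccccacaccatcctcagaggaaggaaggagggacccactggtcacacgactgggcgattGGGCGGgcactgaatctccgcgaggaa

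The same source places 53 of 919 miRNA hairpins of chromosomes 1 to 19 in 48 members. They encode 91 mature miRNAs with 87 different seeds, the bases 2 to 8 that pair with targets. Mature miRNAs from 4 members whose strength shifted, and 2 miRNAs that share a seed, read as follows with the seed in capitals.
mmu-miR-206-3p: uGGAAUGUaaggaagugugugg
mmu-miR-206-5p: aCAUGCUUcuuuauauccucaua
mmu-miR-8096: gGGCACGGuagcugaagagu
mmu-miR-6347: cAGUGCGGcuggcuggagaugc
mmu-miR-6387: uGGAAUGGcuucccuuguguau
mmu-miR-132-3p: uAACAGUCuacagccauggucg
mmu-miR-212-3p: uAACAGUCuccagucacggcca
The seeds of miR-132-3p and miR-212-3p, whose hairpins are neighbours on chromosome 11, are identical.

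Of the members, 13334 (64.2%) lay inside a gene and 7442 between genes. Their median width was 1035 bp, with a range of 238 to 4997 bp, against 1256.5 bp for gene-end regions. The median distance from the centre of a member to the nearest start was 18053 bp. Regions over 1 kb from gene ends became wider as more libraries held them, from a median of 318 bp in those held by 1 library to 844 bp in those held by 7. A region is the union of its peaks, so its width can grow with the number of libraries by construction. Within a single library the peaks covered a median of 577 to 716 bp of a member.

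In every library the members were weaker than the gene-end regions. Median percentiles of the members were 41.1 to 46.1 across the libraries, and those of gene-end regions 56.7 to 64.2. In deposited fold, the members' median ran from 3.65 to 5.34 and that of gene-end regions from 4.58 to 5.91. The top 10% of all constitutive regions in each library nevertheless held many members, which made up 33.9 to 51.4% of it. The medians of the 2 classes lay closest together in the control siRNA libraries, with 46.1 and 45.9 for members and 56.7 and 57.1 for gene-end regions.

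**Figure D1:**
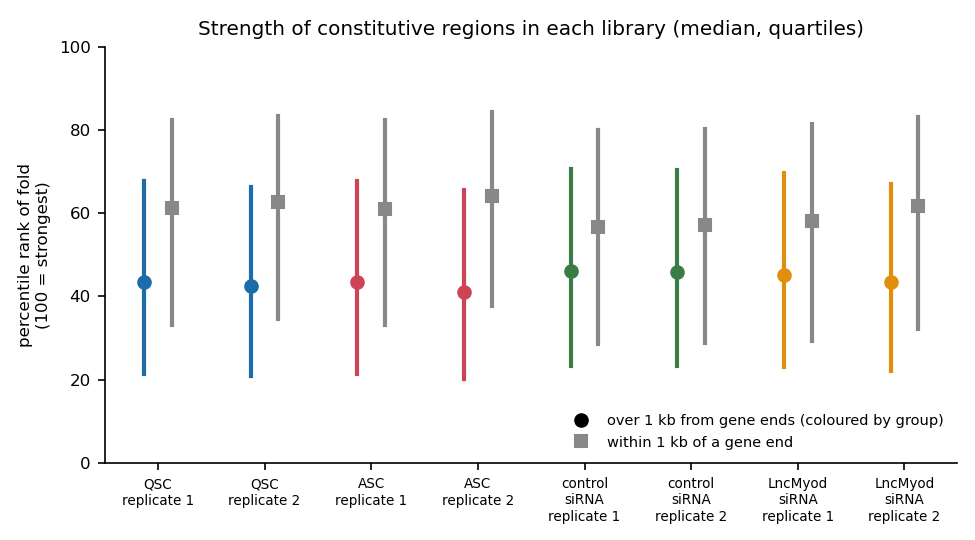
Median (marker) and quartiles (line) of the percentile rank of fold in each of the 8 libraries, for members (circles, coloured by group) and gene-end regions (grey squares). The members' medians sit between 41.1 and 46.1 and those of gene-end regions between 56.7 and 64.2.

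The 8 members of the highest mean percentile over all libraries, at most 1 per gene, lay at Ifngr2, Gm32291, Timd2, Epm2a, Gm36264, Zfp945, Cln6 and Gm29683. Chosen in this way, all 8 had a percentile of at least 99.8 in every library, where the rank is close to its ceiling and hardly shows differences of fold. The deposited folds did vary within a member. At Timd2, as deposited, they were 17.6 and 15.4 in QSC, 11.7 and 12.0 in ASC, 20.4 and 20.1 in control siRNA, and 20.6 and 16.3 in LncMyod siRNA. Widths of the 8 ran from 238 to 862 bp, and deposited folds from 10.2 to 23.9. The strongest of all, chr16:91534485-91534795, lay between genes, 12264 bp from the nearest end of Ifngr2, the gene for an interferon gamma receptor chain.

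The 1 kb limit separated similar regions. The 188 members less than 100 bp past it had a median percentile of 40.8, and the 205 regions less than 100 bp short of it, just outside the rule, had 40.4. Another 6445 regions beyond 1 kb were held by exactly 7 libraries. The library that lacked them was most often ASC replicate 2, with 2496, or QSC replicate 2, with 1495, and least often LncMyod siRNA replicate 1, with 60. These 2 libraries had 59666 and 64991 peaks, and LncMyod siRNA replicate 1 had 95449.

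Strength of the members followed the groups. As a description over 20776 members, Spearman's rho between the replicates of a group was 0.890 in QSC, 0.842 in ASC, 0.912 in control siRNA and 0.875 in LncMyod siRNA. Between groups it was 0.514 to 0.576 for QSC and ASC, 0.596 to 0.641 for ASC and control siRNA, and 0.447 to 0.488 for QSC and control siRNA. For control siRNA and LncMyod siRNA it was 0.843 to 0.908, a range that reached the values between replicates. A limma test for any difference among the 4 groups was passed by 8659 members (41.7%), beside 33.3% of all regions tested and 20.9% of gene-end regions. This count fell to 5616 without QSC replicate 1 and 5281 without QSC replicate 2, fits with 1 QSC library and fewer degrees of freedom. Among the 8659, QSC had the highest mean in 3017 and the lowest in 3409, more often than any other single group. Control siRNA was highest in 2347 and lowest in 1520, and LncMyod siRNA in 1501 and 1447. These 2 groups were close to each other and divided the extremes of culture between them. The counts thus do not rank QSC against culture as a whole. The control siRNA and LncMyod siRNA groups were the 2 extremes in 30 and 7 members.

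The first comparison asked which constitutive sites change strength when satellite cells are activated by injury. In ASC against QSC, 2590 members rose (12.5%) and 2603 fell (12.5%), beside 9.88% and 9.45% of all regions tested. "Rose" and "fell" refer to a shift of percentile with a Benjamini-Hochberg adjusted p under 0.05 in the limma fit. The median shift over all members was -0.71 points, and the members that passed had a median shift of 37.2 points in size. The median standard error of a difference was 8.0 points. Counts were 1616 higher and 1405 lower without QSC replicate 1, 1443 and 1387 without QSC replicate 2, and 1568 lower without ASC replicate 2. In the comparisons that follow, ASC or the culture groups appear again, so the results share libraries.

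The 5 clearest rises went from mean percentiles of 5.41 to 25.2 in QSC to means of 95.6 to 99.8 in ASC. A member between genes at chr2:164309454-164309991, 6760 bp from the nearest gene end, that of Svs6 (a seminal vesicle secretory protein gene), had percentiles of 4.26 and 6.57 in QSC, 99.9 and 99.7 in ASC, 99.4 and 99.9 in control siRNA, and 99.5 and 98.4 in LncMyod siRNA. It rose in ASC by 94.4 points (SE 4.12, adjusted p = 9.1e-05), and the QSC libraries stood apart from all 6 others. The member in Dpyd, which encodes the first enzyme of pyrimidine breakdown, had 10.7 and 2.85 in QSC, 98 and 96.3 in ASC, 98.2 and 99.4 in control siRNA, and 99 and 98.2 in LncMyod siRNA. It rose by 90.4 points (SE 4.6, adjusted p = 9.1e-05), again with the other 3 groups alike. Prkg2, a cGMP-dependent protein kinase gene, held a member that rose by 78.9 points (SE 4.04, adjusted p = 9.1e-05). Gid4, the gene of a ubiquitin ligase subunit, held one that rose by 73.4 points (SE 3.87, adjusted p = 9.1e-05). A member nearest the noncoding gene Gm41327 rose by 81.3 points (SE 3.68, adjusted p = 9.1e-05). In all 5, both culture groups were within 10 points of the ASC mean, so the difference was between QSC and the rest.

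The clearest falls were of 2 kinds. Some stayed low in culture. The member in Tnik, a kinase gene, had 95.9 and 91.7 in QSC, 13.3 and 8.45 in ASC, 3.08 and 4.74 in control siRNA, and 10.1 and 11.4 in LncMyod siRNA, and fell by 82.9 points (SE 6.15, adjusted p = 0.00027). In Abl2, a tyrosine kinase gene, the values were 85.3 and 83.2 in QSC, 5.81 and 3.48 in ASC, 2.77 and 1.42 in control siRNA, and 0.668 and 12.3 in LncMyod siRNA, a fall of 79.6 points (SE 5.94, adjusted p = 0.00027). The member nearest A630001G21Rik, which holds the hairpin of miR-8096, fell by 79.4 points (SE 5.6, adjusted p = 0.00023). In these 3 only QSC was high. Others were low in ASC alone. A member nearest the noncoding gene Gm32357 had 96.4 and 94.2 in QSC, 26 and 31.4 in ASC, 96.3 and 97.7 in control siRNA, and 97.7 and 98.2 in LncMyod siRNA. It fell in ASC by 66.6 points (SE 3.79, adjusted p = 0.00011) and was higher in control siRNA than in ASC by 68.3 points (SE 3.79, adjusted p = 0.0011). The member nearest Ube2q2, a ubiquitin-conjugating enzyme gene, had 87.9 and 91.1 in QSC, 25.4 and 24.2 in ASC, 94.6 and 93.2 in control siRNA, and 87.8 and 81.3 in LncMyod siRNA. Here too the 2 ASC libraries lay below all 6 others.

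**Figure D2:**
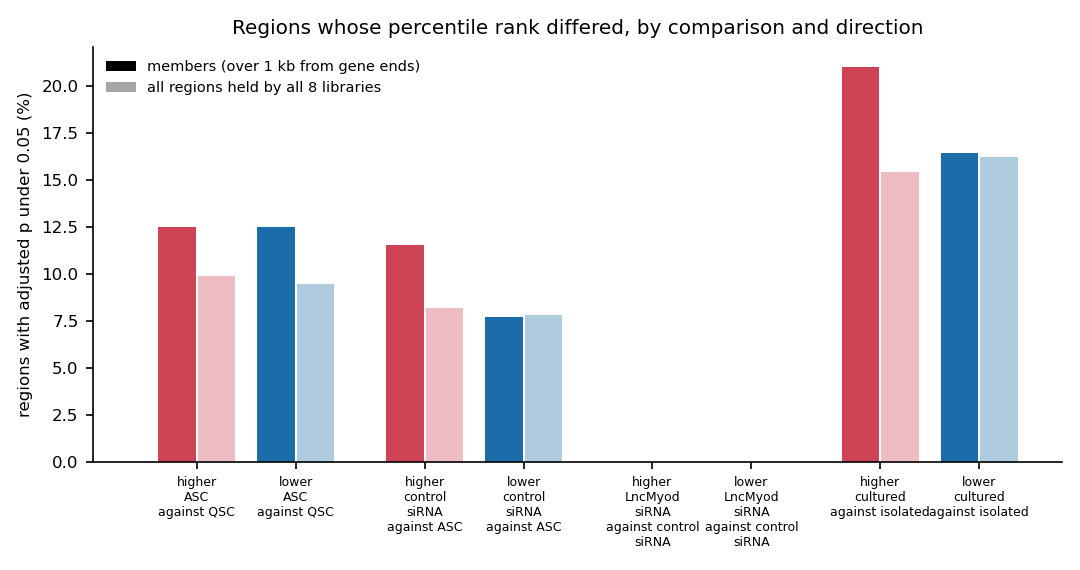
Percent of members (full colour) and of all regions held by all 8 libraries (pale) with an adjusted p under 0.05, for the 4 comparisons and both directions. Members rose in 12.5%, 11.5%, 0% and 21.0% and fell in 12.5%, 7.67%, 0% and 16.4%.

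The second comparison set cells cultured with control siRNA against ASC, 2 groups that differ in injury, culture and siRNA treatment together, which cannot be told apart. A total of 2388 members rose (11.5%) and 1593 fell (7.67%), beside 8.15% and 7.79% of all regions tested. The surplus of rises depended on what the members were ranked against. Ranked among themselves alone, 1970 members rose and 1995 fell, so that rises were 49.7% of the calls in place of 60.0%. Gene-end regions moved the other way, with 437 higher and 1109 lower and a median difference of -4.36 points, beside 1.58 points for the members. Both classes were ranked together, so a mean rise of 1 class brings a mean fall of the other by construction. The opposite moves are thus not separate observations. Counts were lowest without control siRNA replicate 1, at 640 and 307, and were 719 and 352 without control siRNA replicate 2 and 1341 and 989 without ASC replicate 2.

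Among the clearest rises were the members nearest Gm32357 and Ube2q2 described above, which in control siRNA were again near their QSC level. The other 3 had the same shape. Tenm3, a cell surface teneurin gene, held a member with 91.6 and 92.7 in QSC, 22.7 and 37.5 in ASC, 99.6 and 99.8 in control siRNA, and 99.4 and 97.3 in LncMyod siRNA. The rise over ASC was 69.6 points (SE 4.98, adjusted p = 0.0016). Nckap5 held one that rose by 59.9 points (SE 4.22, adjusted p = 0.0016), and the one nearest the noncoding gene Gm33390 rose by 81.3 points (SE 5.73, adjusted p = 0.0016). In all 5, QSC lay above ASC, and ASC was the lowest of the 4 groups.

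The clearest falls were sites high in ASC. The member in Ramp1, a subunit of the receptor for the neuropeptide CGRP, had 5.66 and 9.71 in QSC, 80.3 and 78.5 in ASC, 5.78 and 1.8 in control siRNA, and 6.97 and 7.59 in LncMyod siRNA. It was high in ASC alone and fell in control siRNA by 75.6 points (SE 5.41, adjusted p = 0.0016). In Eps8, an actin regulator gene, the values were 3.63 and 5.27 in QSC, 75.2 and 82.2 in ASC, 9.85 and 5.89 in control siRNA, and 27.3 and 21.4 in LncMyod siRNA, a fall of 70.8 points (SE 6.29, adjusted p = 0.0023). Pgs1, a phospholipid synthesis gene, and the noncoding gene Gm41499 had members that fell by 60.9 points (SE 5.4, adjusted p = 0.0023) and 78.1 points (SE 6.28, adjusted p = 0.0023). In these 4 QSC was low too, at 21.9 or less in both libraries. The member in Kif3c, a kinesin motor gene, differed: its values were 71 and 66 in QSC, 95.9 and 92.5 in ASC, 10.5 and 13.2 in control siRNA, and 15.6 and 13.9 in LncMyod siRNA, with both isolated groups high.

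To compare cells in culture with cells taken from the animal, the mean of the 2 culture groups was set against the mean of QSC and ASC. Culture, differentiation and siRNA treatment go together here and cannot be told apart. In culture 4366 members were higher (21.0%) and 3402 lower (16.4%), beside 15.4% and 16.2% of all regions tested. Ranked among the members alone the counts were 3919 and 3936. The median standard error was 5.66 points, and the median size of the shifts that passed 26.4 points. Gene-end regions were higher in 969 and lower in 2216, again in the joint ranking that ties the 2 classes to each other.

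The rises include sites close to the bottom of both isolated groups. The member in Nnmt, which encodes the enzyme that methylates nicotinamide, had 13.6 and 7.65 in QSC, 9.96 and 18.4 in ASC, 99 and 97.6 in control siRNA, and 95.1 and 95.2 in LncMyod siRNA. It was higher in culture by 84.3 points (SE 5.21, adjusted p = 0.00032), with no overlap between cultured and isolated libraries. A member nearest the noncoding gene Gm32847 had 11.3 and 2.28 in QSC, 22.5 and 20.8 in ASC, 98.4 and 98.9 in control siRNA, and 95.5 and 97.8 in LncMyod siRNA, a difference of 83.5 points (SE 5.08, adjusted p = 0.00032). The member nearest Wee1, a kinase gene that restrains entry into mitosis, had 4.01 and 8.23 in QSC, 79.5 and 80.1 in ASC, 99.1 and 99.1 in control siRNA, and 98.6 and 99.3 in LncMyod siRNA. It was higher by 56.1 points (SE 3.5, adjusted p = 0.00032), but most of its distance lay between QSC and ASC. The members at Svs6 and Gm41327 were also among the clearest 5, and were low in QSC alone.

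The falls were sites near the top in both isolated groups. The member in Iqgap1, a cytoskeletal scaffold gene, had 86.9 and 76.1 in QSC, 87.6 and 86.1 in ASC, 9.75 and 6.09 in control siRNA, and 18.3 and 15.3 in LncMyod siRNA. It was lower in culture by 71.8 points (SE 5.47, adjusted p = 0.00032). A member in Frmd4a and the noncoding gene Gm39751 had 90.7 and 91.3 in QSC, 89.3 and 87.1 in ASC, 11.9 and 4.5 in control siRNA, and 10.8 and 18.1 in LncMyod siRNA, lower by 78.3 points (SE 5.36, adjusted p = 0.00032). Members in the noncoding genes Gm32296 and 1700045H11Rik were lower by 74 points (SE 5.5, adjusted p = 0.00032) and 71 points (SE 5.33, adjusted p = 0.00032). The one nearest Gm31707, on chromosome 18, was lower by 39.1 points (SE 2.75, adjusted p = 0.00032) but stayed above the 54th percentile in every library.

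**Figure D3:**
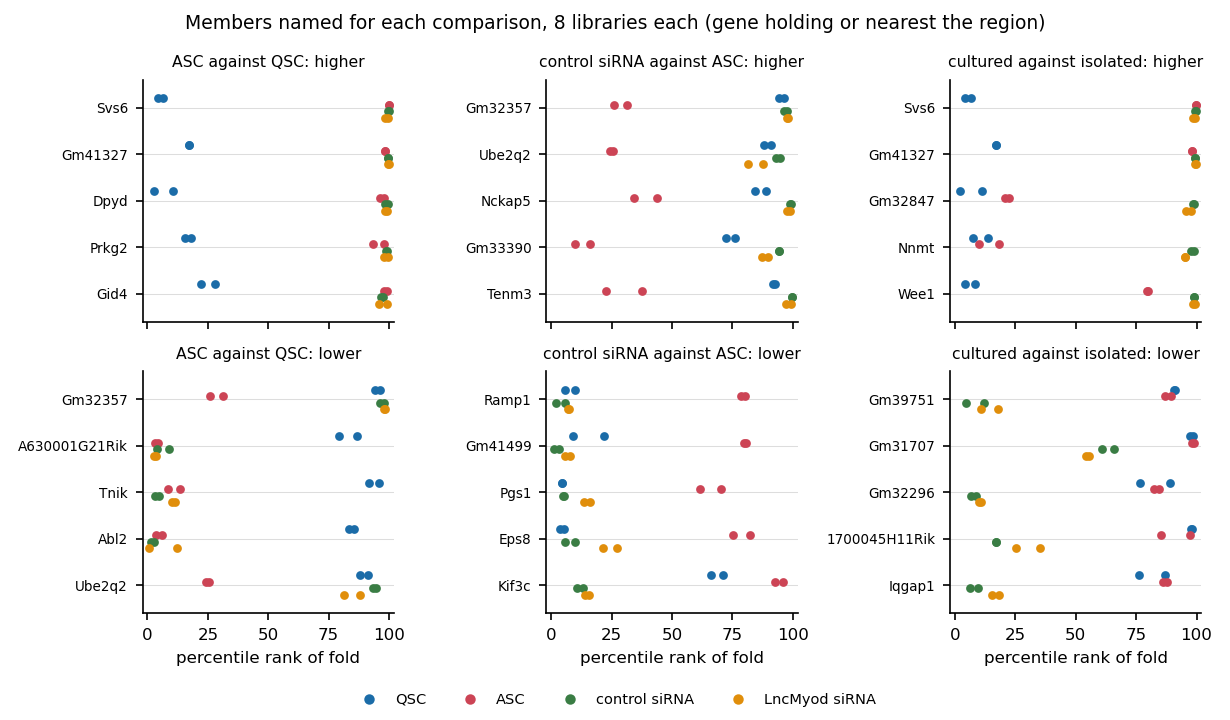
Percentile rank of fold in each of the 8 libraries (points, coloured by group) for the 5 members named in each direction of 3 comparisons, labelled with the gene that holds or is nearest the region. Replicates lie close together, and in the left column QSC stands apart from the other groups at 8 of the 10 members. The members were named in order of p, which favours close replicates and separate groups.

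The third group comparison asked whether knockdown of LncMyod shifts the strength of sites with a peak in all 4 groups. No member passed in LncMyod siRNA against control siRNA with limma, beside 0% of all regions tested. The lowest adjusted p among the members was 0.22. At an unadjusted p under 0.05 there were 1512 members (7.28%), beside 6.86% of all regions. The 5th and 95th percentiles of the difference over the members were -19.4 and 14.5 points, against -40.6 and 42.3 in ASC against QSC. With 2 libraries a group and a median standard error of 8.0 points, shifts near that size were not detectable. Much larger ones did not pass either, such as -48.8 points in Gm40056 (SE 5.09, limma adjusted p = 0.22). The lack of calls therefore does not show that shifts were absent. Leaving out LncMyod siRNA replicate 1 gave 1 lower member, and each of the other alternatives run gave 0 in both directions.

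Members with the lowest p in this comparison are given as values. In the noncoding gene Gm40056 the percentiles were 97.3 and 91.6 in QSC, 78.6 and 79.8 in ASC, 87.3 and 86.9 in control siRNA, and 43.4 and 33.2 in LncMyod siRNA, a difference of -48.8 points (adjusted p = 0.22). In Rassf2, a Ras association domain gene, they were 14.3 and 12.4 in QSC, 7.91 and 13.3 in ASC, 51.4 and 61.7 in control siRNA, and 12.4 and 4.86 in LncMyod siRNA, and the difference was -47.9 points (adjusted p = 0.42). At Tap2, which encodes a peptide transporter of antigen presentation, they were 91.2 and 86.9 in QSC, 88.6 and 81.2 in ASC, 46.7 and 51.2 in control siRNA, and 81.8 and 75.1 in LncMyod siRNA, with a difference of 29.4 points (adjusted p = 0.63). At Grasp the difference was 21.9 points (adjusted p = 0.63). In each of these the 2 libraries of one group lay apart from the 2 of the other, but none passed the test.

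The locus of miR-206, a muscle miRNA, and its host transcript Lincmd1 held neighbouring constitutive sites that moved differently. The hairpin lies in a member at chr1:20677876-20679695, whose percentiles were 93.7 and 93.3 in QSC, 72.7 and 76.8 in ASC, 22.8 and 10.9 in control siRNA, and 10.9 and 37.1 in LncMyod siRNA. It was lower in culture by 63.7 points (SE 7.01, adjusted p = 0.00057), and every cultured library lay below every isolated one. A second member inside Lincmd1, chr1:20674280-20676336, had 40.3 and 35.9 in QSC, 0.572 and 9.59 in ASC, 0.0332 and 0.0187 in control siRNA, and 0.0187 and 0.0505 in LncMyod siRNA. It fell in ASC by 33.1 points (SE 4.14, adjusted p = 0.0016) and was among the weakest of all constitutive regions in culture. Between genes on the lower-coordinate side, chr1:20666277-20668204 had 24.8 and 22.5 in QSC, 56.3 and 61.5 in ASC, 29.9 and 31.7 in control siRNA, and 48.4 and 76.2 in LncMyod siRNA. It rose in ASC by 35.3 points (SE 9.88, adjusted p = 0.037), in the opposite direction to its neighbour. On the other side, chr1:20690768-20691916 had 98.2 and 96.8 in QSC, 85.1 and 95.4 in ASC, 91.7 and 94.9 in control siRNA, and 90.4 and 93.6 in LncMyod siRNA, high in every library, and passed in none of the 4 comparisons.

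Pax7, the transcription factor gene that defines satellite cells, held 7 members. One of them, chr4:139750923-139752057, had 36.7 and 33.8 in QSC, 25 and 17.3 in ASC, 4.19 and 3.46 in control siRNA, and 0.506 and 4.62 in LncMyod siRNA. It was lower in culture by 25 points (SE 3.22, adjusted p = 0.00099) and in control siRNA against ASC by 17.3 points (SE 4.55, adjusted p = 0.036). The other 6 passed in none of the 4 comparisons, and their mean percentiles ran from 7.82 to 49.9. Calcr encodes the calcitonin receptor, which keeps satellite cells quiescent. Its member at chr6:3741061-3742651 had 54 and 59.8 in QSC, 91.8 and 79.2 in ASC, 97.4 and 93.3 in control siRNA, and 99.5 and 94.3 in LncMyod siRNA, and rose in ASC by 28.6 points (SE 4.73, adjusted p = 0.0046). Ranked by the deposited -log10 q, the same member had a difference of -17.1 points, so its direction depends on the value ranked. Near Mymx, a gene for a fusion protein of myoblasts, the values were 79.5 and 63.7 in QSC, 62.8 and 16.8 in ASC, 21.4 and 19 in control siRNA, and 18.1 and 24.4 in LncMyod siRNA. It was lower in culture by 35 points (SE 9.61, adjusted p = 0.024), and its 2 ASC libraries disagreed. No member was assigned to Myod1, Myog, Myf5, Myf6, Cd34 or Mymk.

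**Figure D4:**
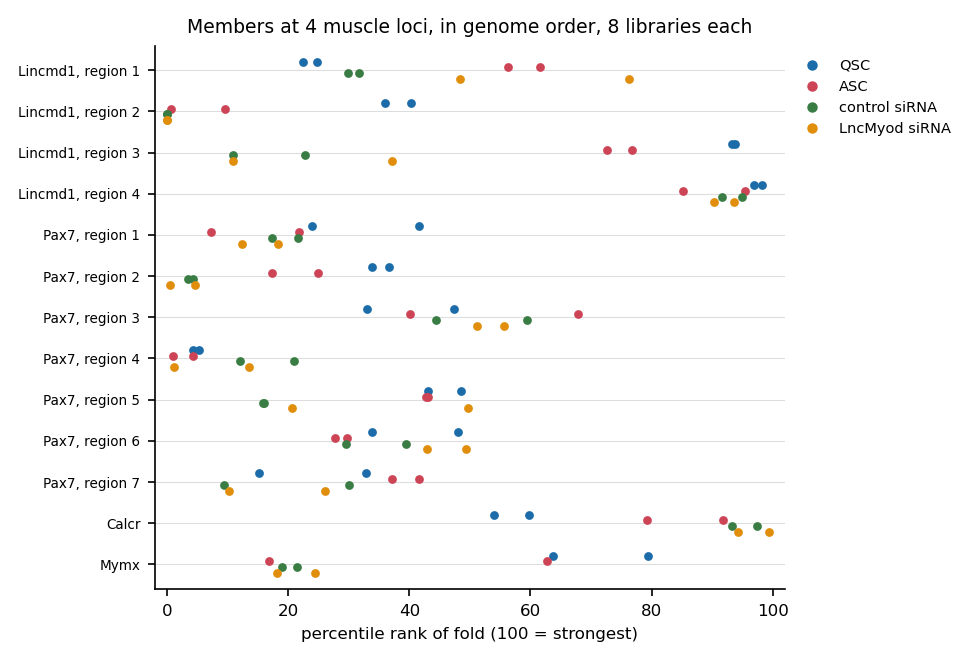
Percentile rank of fold in each of the 8 libraries (points, coloured by group) for the members assigned to Lincmd1, Pax7, Calcr and Mymx, in genome order within each gene. The member of Lincmd1 that holds the miR-206 hairpin (region 3) falls from 93.7 and 93.3 in QSC to 22.8 and 10.9 in control siRNA, while region 4 stays above 85 in all libraries.

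Gene groups are described by the members assigned to their genes, beside medians over all regions tested of 0.02 points in ASC against QSC, -1.46 in control siRNA against ASC and -1.12 in cultured against isolated. The shares of all regions tested that were called higher and lower were 9.88% and 9.45%, 8.15% and 7.79%, and 15.4% and 16.2% in the same order, and those of all members 12.5% and 12.5%, 11.5% and 7.67%, and 21.0% and 16.4%. The counts of each list below stand beside these shares and have no test of their own. Several members can belong to 1 gene. No member of any list passed in LncMyod siRNA against control siRNA. The myogenic program, a list of muscle regulators and of genes for fusion and the synapse, had 104 members at 25 of 34 genes. ASC against QSC gave 19 higher, 8 lower and 77 not passing, with a median difference of 2.54 points. Control siRNA against ASC gave 17, 4 and 83 (median -3.55), and cultured against isolated 28, 13 and 63 (median 1.5). As shares of the 104, higher and lower calls were 18.3% and 7.69%, 16.3% and 3.85%, and 26.9% and 12.5%. In control siRNA against ASC the median was below 0 although more members rose than fell. The balance of calls and the median also differed in sign in culture for the quiescence, immediate early and endothelial lists, in control siRNA against ASC for the cell cycle and glial lists, and in ASC against QSC for the contractile list. A member in Tcf12, a partner of MyoD, had 51.5 and 49.1 in QSC, 71.7 and 70.1 in ASC, 98 and 97.5 in control siRNA, and 99 and 99 in LncMyod siRNA, and was higher in culture by 37.7 points (SE 2.55, adjusted p = 0.00032). One near Id1, an inhibitor of MyoD, had 7.58 and 12.5 in QSC, 19 and 14.1 in ASC, 65.6 and 67 in control siRNA, and 58.4 and 69.1 in LncMyod siRNA, higher in culture by 51.7 points (SE 5.35, adjusted p = 0.0005). In Chrna1, the acetylcholine receptor subunit gene, the values were 67.1 and 66.6 in QSC, 39 and 38.7 in ASC, 5.88 and 3.86 in control siRNA, and 12.6 and 19 in LncMyod siRNA, lower in culture by 42.5 points (SE 4.5, adjusted p = 0.00053).

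Members of 1 gene could differ in direction, as at 2 genes of the list. In Tead1, which encodes a factor that activates muscle genes, chr7:112885498-112886090 rose in ASC by 65.5 points (SE 7.38, adjusted p = 0.0011) and chr7:112785242-112785789 fell by 67.5 points (SE 8.43, adjusted p = 0.0016). Around Ncam1, a cell adhesion gene, chr9:49816048-49816984 had 44.9 and 43.6 in QSC, 90.4 and 92.3 in ASC, 92.2 and 91.3 in control siRNA, and 95 and 94.4 in LncMyod siRNA, and rose in ASC by 47.1 points (SE 3.45, adjusted p = 0.00026). The member beside it, chr9:49813910-49814547, had 73.8 and 90.3 in QSC, 21.7 and 38.8 in ASC, 8.02 and 16 in control siRNA, and 21.8 and 6.19 in LncMyod siRNA, and fell by 51.8 points (SE 9.59, adjusted p = 0.0074). Members were named separately for each direction, so these pairs are examples and give no share of such genes.

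Genes of satellite cell identity and quiescence had 137 members at 26 of 32 genes. From QSC to ASC 21 rose and 19 fell, and 97 did not pass (median difference 1.13 points). From ASC to control siRNA 10 rose and 12 fell, with 115 not passing (median -2.38), and culture gave 26 higher, 19 lower and 92 not passing (median -1.06). A member near Nfib, a nuclear factor gene, had 81.7 and 91.1 in QSC, 40.6 and 45.4 in ASC, 95.9 and 87.8 in control siRNA, and 87.3 and 92 in LncMyod siRNA. It fell in ASC by 43.4 points (SE 5.08, adjusted p = 0.0013) and was higher again in control siRNA by 48.8 points (SE 5.08, adjusted p = 0.0024). In Foxo3, a quiescence transcription factor gene, chr10:42207494-42208130 fell in ASC by 57.2 points (SE 8.96, adjusted p = 0.0037), while chr10:42230294-42231834 was high in QSC and ASC and fell in control siRNA by 29.4 points (SE 4.4, adjusted p = 0.0056). A member near Met, the receptor gene for hepatocyte growth factor, had 1.01 and 0.515 in QSC, 13.9 and 8.35 in ASC, 45.7 and 57 in control siRNA, and 60.3 and 54.4 in LncMyod siRNA, and was higher in culture by 48.4 points (SE 4.83, adjusted p = 0.00046).

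Notch signalling keeps satellite cells quiescent, and its genes had 47 members at 16 of 18 genes. Of these, 8 rose, 5 fell and 34 did not pass in ASC against QSC (median difference 7.53 points). The counts for control siRNA against ASC were 10, 6 and 31 (median 3.1), and those for cultured against isolated 14, 8 and 25 (median 7.33). Among receptors, Notch2 held members that moved in both directions. One, chr3:98146699-98148159, had 3.71 and 4.51 in QSC, 80.5 and 44.6 in ASC, 3.02 and 9.49 in control siRNA, and 5.97 and 2.95 in LncMyod siRNA, and rose in ASC by 58.4 points (SE 9.85, adjusted p = 0.005). Another, chr3:98046324-98046833, was higher in culture by 26 points (SE 2.92, adjusted p = 0.00061), and chr3:98056063-98057518 was lower by 20.1 points (SE 2.9, adjusted p = 0.0015). Among coactivators, a member in Maml3 had 23.3 and 24.6 in QSC, 92.3 and 98.2 in ASC, 97.4 and 96.6 in control siRNA, and 98.6 and 93.1 in LncMyod siRNA, and rose in ASC by 71.3 points (SE 4.24, adjusted p = 0.00015). For the target gene Heyl, a member with 12.5 and 22.8 in QSC, 1.23 and 2.02 in ASC, 35.2 and 40.2 in control siRNA, and 51.3 and 52.8 in LncMyod siRNA was higher in culture by 35.2 points (SE 4.41, adjusted p = 0.00089). A member in Numb, an inhibitor of Notch, fell in ASC by 52.3 points (SE 9.11, adjusted p = 0.0057).

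Immediate early and AP-1 genes respond to injury and to tissue dissociation, and had 29 members at 14 of 27 genes. ASC against QSC gave 6 higher, 0 lower and 23 not passing, with a median difference of 6.96 points. Control siRNA against ASC gave 0, 7 and 22 (median -2.77), and cultured against isolated 4, 6 and 19 (median 1.55). The calls in ASC against QSC were 20.7% of the list, beside 19.3% of all regions tested called in either direction, and those in control siRNA against ASC 24.1%, beside 15.9%. Near Fosb, an AP-1 subunit gene, chr7:19316443-19317298 had 6.68 and 12.9 in QSC, 57.7 and 63.8 in ASC, 65.9 and 73.7 in control siRNA, and 60.8 and 86.3 in LncMyod siRNA, and rose in ASC by 50.9 points (SE 9.7, adjusted p = 0.0082). A second one near Fosb, chr7:19326358-19327585, had 54.6 and 55.8 in QSC, 35.8 and 50.9 in ASC, 6.75 and 14.8 in control siRNA, and 11.5 and 12.6 in LncMyod siRNA, and fell in control siRNA by 32.5 points (SE 7.27, adjusted p = 0.021). Klf6, Klf9, Dusp1 and Btg2 had members that rose in ASC, by 48, 39.4, 34.8 and 44.9 points. The one in Klf9 was highest in ASC, though below the middle of the ranks even there. It had 1.14 and 4.5 in QSC, 47.5 and 36.9 in ASC, 12.6 and 6.35 in control siRNA, and 5.93 and 16 in LncMyod siRNA.

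Contractile genes, for the sarcomere and excitation-contraction coupling, had 44 members at 24 of 45 genes. From QSC to ASC 2 rose and 4 fell, and 38 did not pass (median difference 0.355 points). From ASC to control siRNA 4 rose and 5 fell, with 35 not passing (median -0.716), and culture gave 9 higher, 10 lower and 25 not passing (median -2.91). Calls were thus split about evenly, also in the cells cultured towards differentiation. A member near Trdn, the triadin gene, had 87.8 and 65.4 in QSC, 61.9 and 25.6 in ASC, 99.3 and 99.6 in control siRNA, and 98.4 and 98.1 in LncMyod siRNA, higher in culture by 38.6 points (SE 7.64, adjusted p = 0.0061). In Ldb3, a Z-disc gene, a member was higher in culture by 36 points (SE 5.39, adjusted p = 0.0018). A member in Tpm1, for tropomyosin, had 82.6 and 91.8 in QSC, 71.3 and 76.5 in ASC, 34.1 and 27.7 in control siRNA, and 53.3 and 55.6 in LncMyod siRNA, and was lower by 37.9 points (SE 4.88, adjusted p = 0.001). One nearest Acta1, the skeletal actin gene, was lower in culture by 27.9 points (SE 4.54, adjusted p = 0.0025), but under ranking by -log10 q its difference was 2.96 points in the other direction.

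Matrix and adhesion genes had 89 members at 25 of 29 genes. Of these, 14 rose, 13 fell and 62 did not pass in ASC against QSC (median difference 1.12 points). The counts for control siRNA against ASC were 12, 7 and 70 (median 5.82), and those for cultured against isolated 24, 12 and 53 (median 7.6). A member near Itgb1, the integrin beta chain gene, had 16.9 and 12 in QSC, 78.8 and 59.5 in ASC, 86.5 and 88.1 in control siRNA, and 94 and 86.3 in LncMyod siRNA, and rose in ASC by 54.7 points (SE 7.69, adjusted p = 0.0024). The basement membrane collagen genes Col4a1 and Col4a2 held members that fell in ASC by 63.3 points (SE 7.72, adjusted p = 0.0015) and 28.8 points (SE 4.61, adjusted p = 0.0041). A member in Lama2, the laminin chain gene of the muscle basement membrane, had 84.1 and 73.5 in QSC, 69.9 and 78.3 in ASC, 28.2 and 15.5 in control siRNA, and 23.3 and 14.6 in LncMyod siRNA. It was lower in culture by 56 points (SE 6.15, adjusted p = 0.00057).

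Wnt, BMP and TGF-beta genes had 53 members at 20 of 33 genes. ASC against QSC gave 2 higher, 6 lower and 45 not passing, with a median difference of -1.81 points. Control siRNA against ASC gave 8, 2 and 43 (median 6.86), and cultured against isolated 16, 7 and 30 (median 1.51). For the ligand Tgfb2, a member had 7.2 and 21.5 in QSC, 12.4 and 17.3 in ASC, 81.9 and 81.7 in control siRNA, and 73 and 80.2 in LncMyod siRNA, and rose in control siRNA against ASC by 66.9 points (SE 8.24, adjusted p = 0.0031). For the receptor Tgfbr2 a member rose in the same comparison by 53.9 points (SE 8.98, adjusted p = 0.0077). The ligand Wnt5a had a member that fell in ASC by 54.1 points (SE 9.62, adjusted p = 0.0063). Smad3, a transducer of TGF-beta signals, held a member that fell in ASC by 44.4 points (SE 7.71, adjusted p = 0.0057).

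Cell cycle genes had 26 members at 10 of 30 genes. From QSC to ASC 1 rose and 2 fell, and 23 did not pass (median difference -0.0775 points). From ASC to control siRNA 2 rose and 3 fell, with 21 not passing (median 0.263), and culture gave 4 higher, 4 lower and 18 not passing (median -8.06). The 1 riser in ASC was the internal start of Cdkn2a shown above, a gene that makes the inhibitors INK4A and ARF from different first exons. Its member, chr4:89281918-89282597, had 20.8 and 43.8 in QSC, 80.4 and 77.9 in ASC, 30.3 and 35.5 in control siRNA, and 30.9 and 15.4 in LncMyod siRNA. It rose in ASC by 46.9 points (SE 9.79, adjusted p = 0.012) and fell in control siRNA by 46.2 points (SE 9.79, adjusted p = 0.017), so it was high in ASC alone. A member nearest Mki67, the proliferation marker gene, had 54 and 51.6 in QSC, 50.2 and 54.7 in ASC, 91 and 93.3 in control siRNA, and 83.4 and 94.7 in LncMyod siRNA, and was higher in culture by 38 points (SE 3.97, adjusted p = 0.00051).

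Marker lists of other cell types had few members. Counts higher and lower in ASC against QSC were 0 and 1 of 7 members for fibroadipogenic, 1 and 5 of 25 for endothelial, 1 and 3 of 5 for leukocyte, 0 and 1 of 8 for glial, and 1 and 2 of 11 for mural markers. In cultured against isolated they were 0 and 0, 4 and 1, 1 and 1, 2 and 2, and 1 and 2, in the same order. The medians in ASC against QSC were -7.8, -3.56, -30.9, -5.4 and -3.45 points, all below 0. The endothelial median in culture was -1.67 points, and the glial one in control siRNA against ASC, with 2 higher and 1 lower, -1.62 points. The part of such cells in the falls from QSC to ASC was not tested.

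Members with an annotated internal start shifted more like gene-end regions than like the other members. Their median percentile was 52.9, beside 43.6 for members without such a start. In culture 80 of 1064 were higher (7.52%) and 191 lower (18%), whereas the other members had 21.7% higher and 16.3% lower and gene-end regions 6.97% and 15.9%. In control siRNA against ASC 29 rose and 115 fell. In ASC against QSC 91 rose and 41 fell. The difference between these classes is a description, since regions of 1 library are not replicates.

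**Figure D5:**
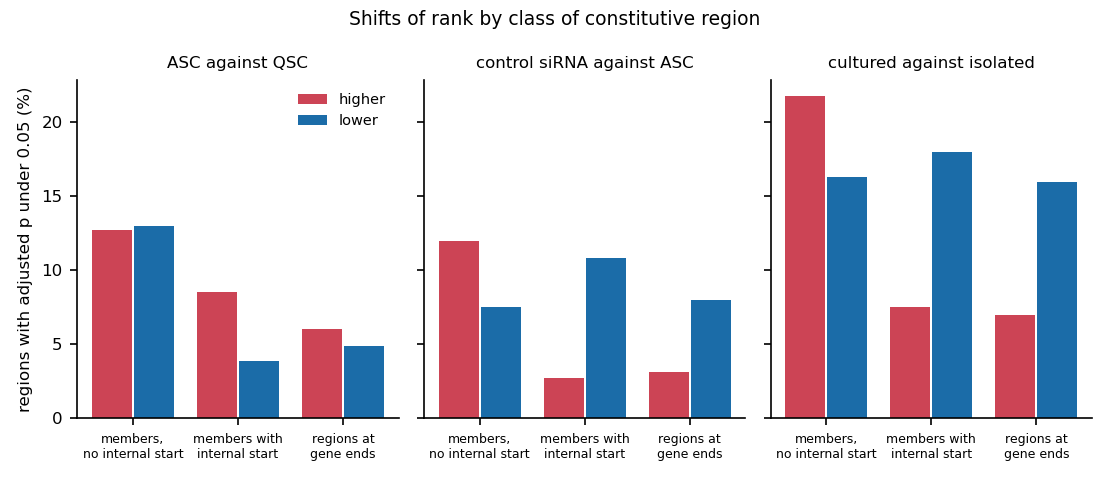
Percent of regions with an adjusted p under 0.05, higher (red) and lower (blue), among members without an internal start, members with one, and gene-end regions, in 3 comparisons. In cultured against isolated the 3 classes were higher in 21.7%, 7.52% and 6.97%.

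The windows printed above belong to members of several shapes. The Ralgds member, chr2:28532960-28534918, had 24.3 and 30.1 in QSC, 81.7 and 80.8 in ASC, 86.6 and 90.4 in control siRNA, and 84.9 and 79.4 in LncMyod siRNA, and rose in ASC by 54.1 points (SE 5.47, adjusted p = 0.00075). Ralgds encodes an exchange factor for Ral GTPases, and its window holds a GC box and an E-box. The S100a16 member, chr3:90540784-90541506, had 69.8 and 52.8 in QSC, 6.81 and 8.14 in ASC, 0.477 and 2.01 in control siRNA, and 0.616 and 4.02 in LncMyod siRNA, and fell by 53.8 points (SE 6.01, adjusted p = 0.0011). This window, of a calcium-binding protein gene, holds RUNX, AP-1, E-box and GC box letters. The R3hdm1 member, chr1:128141104-128142132, with TEAD and E-box letters and no GC box, had 69.8 and 62.8 in QSC, 37.1 and 46.9 in ASC, 86.8 and 92.3 in control siRNA, and 96.1 and 78 in LncMyod siRNA. It rose in control siRNA over ASC by 47.5 points (SE 7.2, adjusted p = 0.0058), and ASC was its lowest group.

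The other windows belong to members that were lower in culture. In Apbb2, an adaptor gene for the amyloid precursor protein, chr5:66337193-66339273 had 24.8 and 24.8 in QSC, 38.2 and 41.9 in ASC, 1.58 and 3.12 in control siRNA, and 2.0 and 5.12 in LncMyod siRNA, and fell from ASC to control siRNA by 37.7 points (SE 4.42, adjusted p = 0.0028). Its window has 3 GC boxes and an E-box. The Adgrg1 member, chr8:94983780-94984552, had 94.4 and 94.2 in QSC, 92.1 and 93.3 in ASC, 56.3 and 56.7 in control siRNA, and 48.6 and 43.4 in LncMyod siRNA. Adgrg1 encodes an adhesion receptor coupled to G proteins, and its window has 2 AP-1 sites and no E-box. It was lower in culture by 42.3 points (SE 3.4, adjusted p = 0.00033).

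Over all 1272 windows that overlapped a member the GC box GGGCGG stood in 59.4%, beside 36.0% of all 31396 windows of the table on chromosomes 1 to 19. The median GC content was 60.3% beside 53.0%, and the median number of CG pairs 18 beside 7. The E-box CAGCTG stood in 18.6% (16.3% of all windows), the ETS letters CCGGAAG in 11.3% (9.0%), TEAD in 13.4% (14.6%), RUNX in 13.2% (16.7%) and AP-1 in 6.68% (7.84%). MEF2 letters stood in 2.91% (3.73%), CTCF letters in 0.31% (0.83%), and the NFI letters in 0% (0.038%). In the 94 windows of members higher in culture the shares were 27.7% for the E-box, 22.3% for TEAD and 43.6% for the GC box. In the 229 windows of members lower in culture they were 21.8%, 7.42% and 65.9%. In the same order of directions, RUNX stood in 14.9% and 14.4%, ETS in 8.51% and 8.30%, and AP-1 in 6.38% and 9.17%. MEF2 stood in 4.26% and 2.18%, CTCF in 1.06% and 0%, and NFI in 0% and 0%. Median GC content was 55.3% and 61.3%, and the median number of CG pairs 12 and 16. A match is a run of letters and no evidence of binding. Several windows can share a member and a gene, so these shares have no test.

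Of the 48 members with a miRNA hairpin, 4 rose and 7 fell in ASC against QSC, 3 rose and 2 fell in control siRNA against ASC, and 3 were higher and 9 lower in culture. Over all regions tested, the shares higher and lower were 9.88% and 9.45%, 8.15% and 7.79%, and 15.4% and 16.2%, and with 48 members these counts are a description only. None passed in LncMyod siRNA against control siRNA. The miR-8096 member had 86.7 and 79.2 in QSC, 4.29 and 2.93 in ASC, 9.01 and 4.03 in control siRNA, and 2.87 and 3.64 in LncMyod siRNA, and was the strongest faller of these in ASC. A member nearest Uck2 that holds the miR-6347 hairpin had 3.64 and 1.94 in QSC, 2.94 and 12.8 in ASC, 52.6 and 42.1 in control siRNA, and 56.9 and 46.9 in LncMyod siRNA, and was higher in culture by 44.3 points (SE 4.97, adjusted p = 0.00061). The one in Trib2 with the miR-6387 hairpin had 4.85 and 1.66 in QSC, 50.3 and 60.4 in ASC, 37.9 and 53.5 in control siRNA, and 40.2 and 20.7 in LncMyod siRNA, and rose in ASC by 52.1 points (SE 9.12, adjusted p = 0.0059). The member with the miR-132 and miR-212 hairpins passed in none of the 4 comparisons. ATAC-seq does not measure the miRNAs themselves.

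Members far from starts rose more often than near ones. Of 3022 members up to 5 kb from a start, 17.9% were higher and 14.5% lower in culture, and of 1267 beyond 100 kb 27.2% were higher and 14.4% lower. In culture, weak members fell more often than strong ones. Among 3136 with a mean percentile under 20, 8.99% were higher and 19.3% lower in culture, and among 3959 with a mean of 60 to 80, 32.1% and 12.3%. The shares were 16.6% and 20.7% at a mean of 20 to 40, and 23.9% and 8.99% at 80 to 100. Rises thus did not keep growing with strength. Of all regions tested 15.4% were higher and 16.2% lower. The mean is over the same libraries, so this split is a description.

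Peak width is a measure the ranking of fold did not use, although it comes from the same peaks. Members that rose in ASC were wider in both ASC libraries than in both QSC libraries in 59.0% of cases, beside 25.3% of all members. Those that fell were narrower in 48.9%, beside 29.8%. In control siRNA against ASC the risers were wider in 40.2%, beside 23.0%, and the fallers narrower in 46.9%, beside 26.9%.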

How the data were processed

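ATAC-seq peak lists of 8 libraries were used. The submitters' processing notes name Bowtie2 2.3.2, MACS2 2.1.1, Picard 2.9.2, bedtools 2.26.0, SAMtools 1.3, bcl2fastq 2.19, Trimmomatic 0.36 and build mm10. Their settings, and any transposase shift, were not given in the sources used here. A broad peak list per library, not pooled, was deposited. Each deposited peak carries a ratio, the fold over local background. The deposited -log10 q served as an alternative, and the deposited -log10 p and score were left out. All of these are the authors' values, and each ranks or filters peaks of its own library only. The samples were grouped by their titles.

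Percentile ranks of the highest fold per region were fitted with limma 3.58.1 (R 4.3.3), with 4 group means, all 8 libraries and a trended prior. P-values were adjusted by Benjamini-Hochberg over 34676 regions within a comparison, with a threshold of 0.05. The method was run on simulated libraries with known shifts placed in the ASC group. These runs do not measure how well shifts in LncMyod siRNA against control siRNA can be found. Merging used numpy 2.4.6 and pandas 2.3.3. Gene ends came from 33073 genes of the RefSeq table of GRCm38.p6. The distance to a start is to the nearest gene end where the table of starts has no entry. A region was assigned to the gene that holds it (with the nearest start), otherwise to the gene with the nearest end. Of 306 entries in 13 gene lists, 305 matched the table.

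Named members are the first 5 past the threshold per comparison and direction in order of p (2 where none passed, as values), the 8 strongest, up to 4 per list, comparison and direction, and loci and starts described for their role. At most 1 member per gene was named for a comparison and direction. Motifs at region centres, also planned, were not analysed here, since no genome was used. Motifs in annotated start windows replaced them. The members and lists were chosen with earlier results of these data known. Alternatives were another ranked value or scale, stricter members, other fits, a replicate block and leaving out each library. Depth is unknown, so no counting interval is given.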

Additional observations from a re-analysis of the deposited data

How the results depend on the processing

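Ranking by -log10 q gave more calls: 4390 members higher and 4750 lower in ASC against QSC, 4666 and 3478 in control siRNA against ASC, 5295 lower in culture, and 13652 for any difference. Requiring a -log10 q of at least 5 in every library left 9732 members, with 809 and 780, 642 and 383, 1637 and 1221, and 2866 in the same order, culture in both directions. Requiring each library to cover 50% of the region left 8627, with 897 and 910, 863 and 453, 1707 and 1233, and 3107. Both keep fewer members by construction, but each of these counts was also a smaller share of the members kept than in the reported fit. Members with a weak or narrow peak in some library thus hold a part of the reported calls. Fitting only the 4 libraries of the comparison gave 893 lower in control siRNA against ASC. Leaving out 1 library at a time gave 1443 to 2491 higher and 1387 to 2522 lower in ASC against QSC, 640 to 2307 and 307 to 1466 in control siRNA against ASC, 3272 to 4106 and 2409 to 3243 in culture, 0 to 0 and 0 to 1 in LncMyod siRNA against control siRNA, 5281 to 8183 for any difference, and 20836 to 23272 members. A single remaining library was assumed to vary like the other groups.

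Deviations of same-numbered libraries correlated by 0.033 to 0.18 over 6 pairs of groups, weakly but always above 0. Replicate 2 also had fewer peaks than replicate 1 in every group. Whether same-numbered libraries share a batch was not tested. With the replicate block, 2654 and 2655, 2451 and 1642, 0 and 0, and 4444 and 3511 members passed, and 8746 for any difference. Of 7387 named member, comparison and alternative combinations, 6818 kept direction and side of the threshold, 458 lost and 106 gained the call, and 5 reversed, all under ranking by -log10 q. These were Calcr in ASC against QSC (-17.1 points), E2f2 likewise (0.254), Acta1 in control siRNA against ASC (2.43) and in culture (2.96), and Zeb2 in culture (-12.6). The cause was not tested. Other scales, mean fold, single-peak regions and a 5 kb limit kept every count of calls in the comparisons within 1.5 times the reported one.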

Other observations

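Some genes held many constitutive sites. A total of 5267 protein-coding genes held at least 1 member in their body, 2895 of them exactly 1 and 117 at least 10. Pakap, which encodes a scaffold of protein kinase A, held 25, Arhgap26 23 and Pde4d, a cAMP phosphodiesterase gene, 22. Gse1, Aopep and Cdh13 held 21 each, and Septin9 and Camta1 20. Septin9, of the septin cytoskeleton, had the highest density of these 8, with 12.3 members per 100 kb of gene, beside 1.69 in Pde4d. Its members were weak, with a median mean percentile of 12.7, beside 51.5 in Pakap. In culture 8 of the 25 members of Pakap were higher and 1 lower, and in Septin9 3 of 20 were higher and 6 lower. Cdh13, the gene of a cadherin, had 7 higher and 6 lower of its 21. Of all members 21.0% were higher and 16.4% lower there, and of all regions tested 15.4% and 16.2%. These genes were named for their number of members, and their counts have no test. They were 163 to 1302 kb long, and a long gene has more room for members. Density over all genes was not computed, so whether sites gather in these genes was not tested.

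Neighbouring members moved in the same and in opposite directions. Another member lay within 10 kb of 7987 members (38.4%). Where 2 neighbours within 10 kb both passed, they moved the same way in 145 of 300 pairs (48.3%) in ASC against QSC, in 81 of 206 (39.3%) in control siRNA against ASC, and in 323 of 729 (44.3%) in culture. Higher calls were 49.9%, 60.0% and 56.2% of all calls among members in these comparisons. The shares of pairs have no test. The members at Lincmd1 and Ncam1 described above are examples. The deposited fold is relative to local background, and the part of that background in these pairs was not tested.

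Among the 8659 members that differed in any way, control siRNA was highest and QSC lowest in 1402 (16.2%), the most frequent of the 12 orders of extremes. LncMyod siRNA was highest and QSC lowest in 1081, and QSC highest and LncMyod siRNA lowest in 1038.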
